A study of Schizosaccharomyces pombe with 14 samples.

Results

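Wild-type fission yeast that had spent 48 h without phosphate was compared with the same strain at 24 h, to describe what still changed inside the period that the labels call quiescence. The libraries were chosen by strain and time, not by any measured value: 3 of the wild type at 48 h and 3 at 24 h, with 3 at 36 h as the intermediate time, so 9 of the 42 libraries and 3 of the 14 samples of the series. All genes were taken, 6521 of 6988 identifiers having enough counts to be tested. The wild type is an h- strain (AGP72), grown to log phase in rich medium (YES) at 30 °C for the 0 h sample and then kept in the synthetic medium ePMGT without phosphate. Where another strain was needed, it was the maf1 deletion (AGP256), an h+ strain with maf1 replaced by natMX, at 48 h and 24 h in the same phosphate-free medium, 3 libraries each. Wild-type libraries of 12 h in that medium and of 0 h, 3 each, gave the earlier steps. Each genotype is 1 strain, and the series' design text speaks of 3 replicate experiments without saying whether these were separate cultures, so p-values measure only the spread between these libraries. The labels place 4 to 12 h without phosphate in a stage of limited growth and 24 to 48 h in quiescence.

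Phosphate-starved fission yeast turns on the PHO genes, among them pho1 for a secreted acid phosphatase, pho84 for the phosphate transporter and tgp1 for a transporter of glycerophosphodiesters, which are otherwise kept off by transcription of noncoding RNAs in front of them. Quiescent yeast cells stop dividing, keep little ribosome synthesis going and live on stores and scavenged nutrients, and fission yeast is best studied in this respect after nitrogen loss. Maf1 represses RNA polymerase III, the enzyme that makes tRNAs and 5S rRNA.

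The 9 wild-type libraries held 13489245 to 19455526 counts and the 6 deletion libraries of 48 h and 24 h held 34317937 to 42808200. Levels are given as CPM, a gene's count relative to the total of its library after TMM scaling. They are relative levels within the poly(A)+ RNA, not exact shares of a library, and do not show how much RNA a cell held. Fewer cells with a transcript and less of it per cell cannot be told apart. The maf1 transcript averaged 2.07 ± 0.376 CPM in the deletion at 48 h (SD, n = 3), against 77.9, 76.5 and 82.5 CPM in the wild type. Summed over 8 markers of h- cells, the level at 48 h was 141 to 151 CPM in the h+ deletion and 963 to 1388 CPM in the wild type, while 3 markers of h+ cells summed to 46.9 to 54.9 CPM in the deletion and 87.4 to 90.9 CPM in the wild type, so the h+ list did not separate the strains the way their mating types would. Markers of spores and late meiosis, 9 of 10 being in the table, of the wild type summed to 301 to 317 CPM at 48 h and 270 to 279 CPM at 24 h. The members spo6 and moa1 stayed under 1 CPM on average at each of 24, 36 and 48 h. The other members ran from meu14 to rec10 on average, at 5.71 to 137 CPM at 48 h and 3.91 to 114 CPM at 24 h.

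From 24 h to 48 h the wild type changed little in most genes, and more genes were called lower than higher at 48 h. A gene is counted as called when its change was at least 2-fold and its Benjamini-Hochberg adjusted p in edgeR's quasi-likelihood test was under 0.05, and every adjusted p of a single gene below comes from that test. Of 6521 genes, 221 were called (3.39%), 38 of them higher at 48 h (0.583%) and 183 lower (2.81%), so 17.2% of the calls were higher. The step from 24 h to 36 h had 101 calls (1.55%), 43 higher (0.659%) and 58 lower (0.889%), and that from 36 h to 48 h had 77 (1.18%), 12 higher (0.184%) and 65 lower (0.997%). For scale, the step from 12 h to 24 h had 216 calls (3.31%), and the move from rich medium to 12 h without phosphate had 2722 (41.7%). The median gene differed by 0.17 on the log2 scale between 48 h and 24 h in either direction. Without a minimum fold, 1595 genes were higher at 48 h (24.5%) and 1502 lower (23.0%).

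The genes called higher were mostly well expressed and those called lower mostly rare. The 38 that rose had a median of 64.7 CPM at 48 h, and 11 of them stayed under 10 CPM. The 183 that fell had a median of 3.92 CPM at 24 h; 128 of them were under 10 CPM and 31 under 1 CPM. Among the 38 were 16 protein-coding genes and 20 noncoding RNAs, and among the 183 were 61 protein-coding genes and 109 noncoding RNAs. All 38 had each 48 h library above each 24 h library, and 181 of the 183 had each 48 h library below each 24 h library. Of all genes 29.2% had each 48 h library above each 24 h library. The calls were made from the same libraries, so this separation largely follows from them, here and for the single called genes below. Past 4-fold were 10 of the 38 and 31 of the 183.

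**Figure D1:**
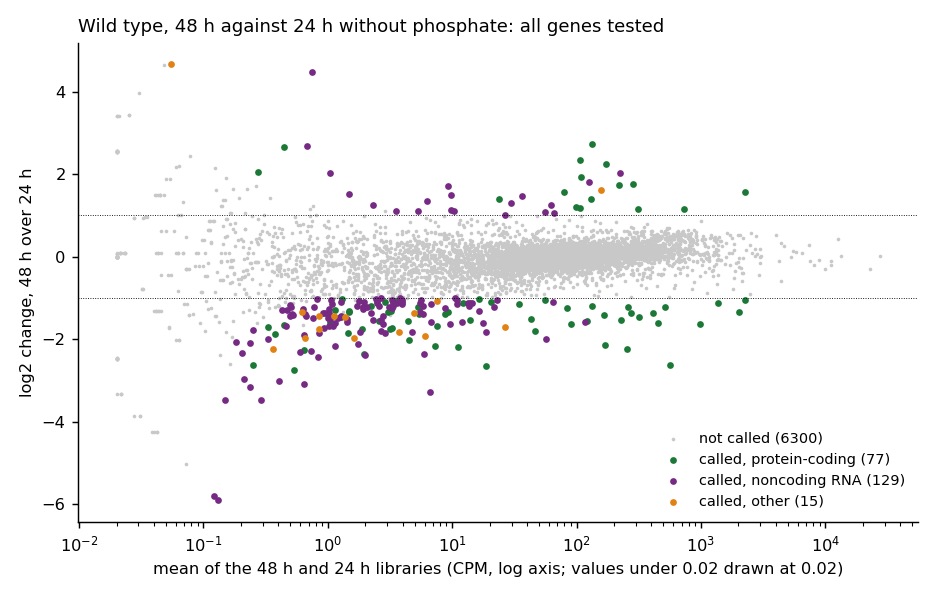
Log2 change from 24 h to 48 h in the wild type (vertical axis) against the mean level of the 6 libraries in CPM (log axis) for all 6521 genes tested; dotted lines mark 2-fold and colours mark the type of the called genes. The 183 genes called lower crowd at low levels, while protein-coding genes called in either direction also lie above 100 CPM.

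Transcripts for the ribosome gained a little, and nearly all together. None of 136 cytoplasmic ribosomal protein genes was called by edgeR or DESeq2, yet in edgeR 134 had an adjusted p under 0.05 with a rise of any size, against 24.5% of all genes, and 135 were higher in each 48 h library than in each 24 h library, against 29.2% of all genes. Their median rise was 1.39-fold (log2 0.48), with 21 past 1.5-fold and a largest log2 change of 0.71, so the result is a small shift of many genes and not a large one of any. As a share of all counts the 136 genes took 8.62%, 8.80% and 8.35% in the 48 h libraries, against 6.36%, 6.47% and 6.50% in the 24 h libraries. The 36 h libraries lay between, at 7.52%, 6.85% and 7.18%. The share had been 3.75%, 3.65% and 3.51% at 12 h and 11.8% ± 0.239 (SD, n = 3) in rich medium at 0 h.

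Within that family, rpl3002 for the large-subunit protein eL30 had 137, 141 and 130.4 CPM at 48 h, against 87.6, 80.1 and 82.3 CPM at 24 h. The groups did not overlap (log2 0.71, SE 0.11, adjusted p = 1.28e-06). For rps1102, which encodes the small-subunit protein uS17, the values were 587, 610.3 and 531 CPM at 48 h and 373, 377 and 371 CPM at 24 h, again apart (log2 0.62). Many ribosomal proteins are encoded by near-identical gene copies, and how reads shared between copies were counted is not given in the sources used here, so a single copy is less certain than the family. Genes around the ribosome followed with smaller changes: 25 of 37 translation factor genes, 56 of 104 ribosome biogenesis genes and 20 of 55 genes for tRNA processing were higher without a minimum fold, and 2, 3 and 9 were lower. Of all genes 24.5% were higher and 23.0% lower by that rule. The initiation factor gene tif1 (eIF4A) was at log2 0.45, rrp14 of ribosome biogenesis at 0.48 and the tRNA methyltransferase gene trm7 at 0.57, none of them called. Of the RNA polymerase III machinery 10 of 22 genes were higher and 1 was lower by that rule, with bdp1 of the factor TFIIIB at 0.44, and of RNA polymerase I 5 of 12 were higher and 1 was lower. Of 50 mitochondrial ribosomal protein genes 12 were lower without a minimum fold, near the share of all genes (23.0%), and 6 were higher, and their median log2 change was -0.01.

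Among the genes that rose past 2-fold, nmt1, an enzyme gene of thiamine synthesis that thiamine represses, had the largest change above 10 CPM. It had 267, 233 and 196 CPM at 48 h, against 39.3, 29.3 and 36.4 CPM at 24 h. The lowest 48 h library lay far above the highest 24 h library, a 6.61-fold rise (log2 2.73, SE 0.11, adjusted p = 3.32e-20), and the 36 h libraries had reached 202, 189 and 192 CPM. It was the only called member of 11 thiamine-repressed genes, whose median log2 change was -0.08 against 0.00 for all genes. At 12 h without phosphate nmt1 had averaged 39.7 ± 5.06 CPM (SD, n = 3), close to its 24 h level.

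Flocculins, surface glycoproteins that make yeast cells stick to each other, were among the rises. Of 14 genes of flocculins and their regulators 5 were called higher (0.583% of all genes were) and none lower in edgeR's test. The list's median log2 change was 0.19. The galactose-specific flocculin gene gsf2 had 225, 429 and 195 CPM at 48 h, against 45.5, 84.1 and 51.96 CPM at 24 h (log2 2.24, SE 0.18, adjusted p = 4.87e-12). For pfl4 the values were 403, 545 and 364 CPM at 48 h and 117, 154 and 118 CPM at 24 h (log2 1.76, SE 0.11, adjusted p = 1.74e-14). The gene pfl9 had 122, 301 and 108 CPM at 48 h and 21.2, 56.6 and 28.7 CPM at 24 h (log2 2.34, SE 0.28, adjusted p = 2.13e-08). In all 3 genes the groups stood apart, and replicate 2 was the highest of its time at 24, 36 and 48 h. Without replicate 2 of 48 h the change of pfl9 was 1.71, and without replicate 2 of 24 h it was 2.85, still called. Smaller in size, pfl8 had 131, 176 and 138 CPM at 48 h and 49.9, 91.4 and 56.6 CPM at 24 h (log2 1.18, SE 0.17, adjusted p = 4.03e-07). The remaining gene, pfl6, stayed under 2 CPM (log2 2.65, or 3.64 without replicate 2 of 24 h). Most of the rise had come by 36 h, when gsf2 had 215, 307 and 249 CPM and pfl4 345, 446 and 383 CPM, and neither was called between 36 h and 48 h. Flocculin genes hold internal repeats, and reads that map to several places could be counted differently among them.

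Further protein-coding genes rose with higher levels. The predicted pyruvate decarboxylase gene pdc201, for the enzyme that turns pyruvate to acetaldehyde, had 3494, 3762 and 2873 CPM at 48 h, against 1154, 1203 and 1047 CPM at 24 h, a 2.98-fold rise (log2 1.57, SE 0.08, adjusted p = 4e-18) with groups apart. It had stood at 8.46 CPM at 0 h and 594 ± 39.02 CPM at 12 h. The formaldehyde dehydrogenase gene fmd2 had 343, 366 and 303 CPM at 48 h and 104, 97.96 and 103 CPM at 24 h, also apart (log2 1.73, SE 0.13, adjusted p = 7.94e-13). At 36 h it had 192, 184 and 198 CPM, less far along its rise than the flocculin genes gsf2 and pfl4 were. In the list of 27 genes for cell wall and glucan remodelling 2 were called higher (0.583% of all genes were) and none lower. These were psu2, a predicted beta-glucosidase gene, with 104, 126 and 124 CPM at 48 h and 41.6, 43.4 and 34.4 CPM at 24 h (log2 1.57, SE 0.11, adjusted p = 1.72e-13), and agn2, an alpha-glucanase gene, with 185, 240.1 and 139 CPM at 48 h and 67.7, 80.4 and 68.1 CPM at 24 h (log2 1.39, SE 0.12, adjusted p = 8.81e-12). Both had groups that did not overlap. SPCC737.04, of the UPF0300 family, whose function is unknown, had 181, 180.1 and 155 CPM at 48 h and 43.2, 42.2 and 49.7 CPM at 24 h (log2 1.94, SE 0.09, adjusted p = 2.33e-19); most of its rise came after 36 h, when it stood at 63.9, 64.9 and 71.8 CPM, and it remained under its 0 h mean of 800.3 CPM.

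**Figure D2:**
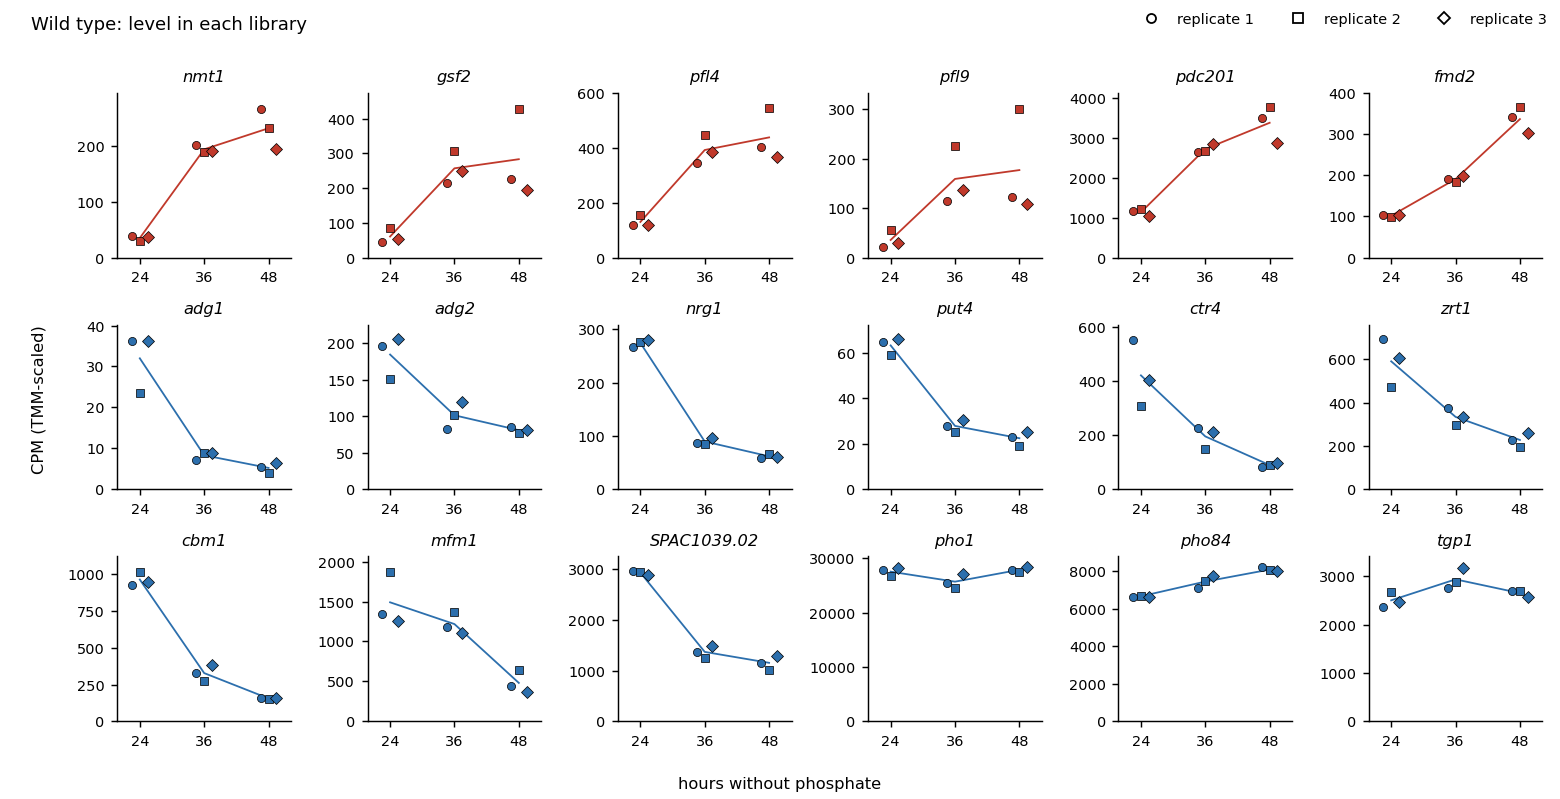
Level in CPM in each wild-type library at 24, 36 and 48 h without phosphate; symbols mark the 3 replicates and lines join the means, red for genes called higher at 48 h than at 24 h and blue for the others. In CPM, the genes in the top row reached most or all of their rise by 36 h except fmd2. The genes adg1 to SPAC1039.02 fell, and pho1, pho84 and tgp1 were not called.

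A pair of genes of cell separation, the step that dissolves the septum between daughter cells, were lower at 48 h. In the list of mitosis and cell separation, edgeR's test called 2 of 44 genes lower and none higher, where 2.81% of all genes were called lower. Without a minimum fold 12 were higher and 8 lower, where 24.5% of all genes were higher and 23.0% lower. The list's median log2 change was 0.05. The called genes were adg1 and adg2. For adg1 the values were 5.40, 3.98 and 6.37 CPM at 48 h and 36.3, 23.5 and 36.1 CPM at 24 h (log2 -2.65, SE 0.18, adjusted p = 1.16e-13). For adg2 they were 85.5, 76.98 and 80.97 CPM at 48 h and 196, 151 and 207 CPM at 24 h (log2 -1.19, SE 0.11, adjusted p = 6.39e-11). The groups stood apart in both. The septum glucanase genes eng1 and agn1 had log2 changes of -0.92 and -0.93, short of 2-fold, although without replicate 2 of 24 h eng1 was called at -1.05; adg3, of the same series, was at -0.12. Of 49 genes for the G1 to S step and DNA replication only the licensing factor gene cdt1 was called (10.98 CPM at 48 h and 22.2 CPM at 24 h, log2 -1.02), and it lost the call without replicate 3 of 24 h (-0.98), replicate 1 of 48 h (-0.96) or replicate 2 of 48 h (-0.99). The inhibitor gene rum1, whose product holds cells in G1, was at -0.16, and none of 11 histone genes was called, with hht2 for histone H3 at 0.58.

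The PHO genes pho1, pho84 and tgp1 were not called, while a pair of predicted secreted nucleotidase genes fell. The acid phosphatase gene pho1 had 27805, 27416 and 28413 CPM at 48 h, against 27749, 26689.8 and 28148 CPM at 24 h (log2 0.02, SE 0.08, adjusted p = 0.878), and the groups overlapped. The phosphate transporter gene pho84 had 8193, 8032 and 7988 CPM at 48 h and 6634, 6688 and 6626 CPM at 24 h, groups that did not overlap but differed 1.21-fold (log2 0.28, SE 0.07, adjusted p = 0.00061). For tgp1 the groups overlapped (2693, 2691 and 2561 CPM at 48 h and 2371, 2665 and 2462 CPM at 24 h, log2 0.08). The noncoding RNA gene nc-pho1, which lies in front of pho1 and whose transcription represses it, averaged 1.66 ± 0.388 CPM at 48 h and 2.64 ± 0.337 CPM at 24 h (log2 -0.64), far under its 20.1 CPM at 0 h; prt2 and nc-tgp1, of pho84 and tgp1, were at -0.16 and 0.23. Of the 8 genes for phosphate acquisition 2 were called lower (2.81% of all genes were). Both are predicted 5'-nucleotidases that would release phosphate from nucleotides outside the cell. SPAC1039.02 had 1155, 1019 and 1286 CPM at 48 h and 2968, 2937 and 2889.6 CPM at 24 h (log2 -1.35, SE 0.10, adjusted p = 2.47e-13), continuing a decline from 6481 ± 159 CPM at 12 h. SPBPB2B2.06c had 1521, 1308 and 1592 CPM at 48 h and 3153, 2895 and 3158 CPM at 24 h (log2 -1.06, SE 0.14, adjusted p = 1.36e-07); without replicate 2 of 48 h its change was -0.98, short of a call. Polyphosphate and inositol pyrophosphate genes had no calls among 8, with vtc2 of the polyphosphate polymerase complex at 0.28.

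Some permease and peptide transporter genes fell. Of 21 genes for nitrogen starvation and transport 4 were called lower (2.81% of all genes were) and none higher, with a list median of -0.14. The proline permease gene put4 had 22.96, 19.2 and 25.4 CPM at 48 h, against 64.7, 59.2 and 66.04 CPM at 24 h (log2 -1.51, SE 0.11, adjusted p = 2.13e-13). The oligopeptide transporter gene isp4 had 91.2, 99.4 and 81.05 CPM at 48 h and 237, 251 and 239 CPM at 24 h (log2 -1.42, SE 0.09, adjusted p = 1.77e-14). Both sets stood apart. The amino acid transporter gene aat1 was rarer, at 3.17, 2.45 and 3.45 CPM at 48 h and 8.89, 6.47 and 7.95 CPM at 24 h (log2 -1.39, SE 0.22, adjusted p = 3.98e-06), and the fourth, meu3, is a noncoding RNA (8.35 CPM at 48 h, 29.3 CPM at 24 h). Amino acid transporter genes outside that list, noticed among the calls after their values were seen, fell too. The predicted transporter gene nrg1 had 58.9, 66.7 and 60.3 CPM at 48 h and 267, 276 and 279.9 CPM at 24 h, a 4.41-fold fall (log2 -2.14, SE 0.10, adjusted p = 3.83e-19). SPAC1039.01, beside SPAC1039.02, had 43.8, 42.6 and 45.1 CPM at 48 h and 133, 138 and 138 CPM at 24 h (log2 -1.64, SE 0.13, adjusted p = 1.72e-12). At lower levels dip5 was at log2 -2.36 (0.644 CPM at 48 h, 3.30 CPM at 24 h) and SPBC359.01 at -1.22 (3.16 CPM at 48 h, 7.47 CPM at 24 h). Each of these 4 had groups that did not overlap.

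Also called lower were 3 genes of purine and pyrimidine use, xan1, urg2 and SPBC800.11, picked out after their values were seen and not from a list. The xanthine dioxygenase gene xan1, of purine use, had 290.1, 329.7 and 310.3 CPM at 48 h and 677, 821 and 679 CPM at 24 h (log2 -1.23, SE 0.11, adjusted p = 8.23e-11). The predicted uracil phosphoribosyltransferase gene urg2 had 764, 788 and 1028 CPM at 48 h and 1737, 1906 and 1987 CPM at 24 h (log2 -1.13, SE 0.12, adjusted p = 8.53e-10). Groups were apart in both. Its companions in the uracil-regulated series, urg1 (-0.91) and urg3 (-0.51), were lower without reaching 2-fold, and urg1 passed it without replicate 3 of 48 h (-1.04). SPBC800.11, a predicted nucleoside hydrolase gene, averaged 4.08 ± 0.939 CPM at 48 h and 18.3 ± 2.84 CPM at 24 h (log2 -2.20, SE 0.19, adjusted p = 1.79e-11). Biosynthesis of amino acids, by contrast, had 40 of 67 genes higher and 6 lower without a minimum fold, against 24.5% and 23.0% of all genes. Its single called member was his3 for a histidine enzyme, which fell (3.67, 2.83 and 4.42 CPM at 48 h and 14.003, 11.6 and 8.67 CPM at 24 h, log2 -1.69).

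Some genes of metal uptake were among the falls. Of 22 genes for iron, copper and zinc acquisition and haem 3 were called lower (2.81% of all genes were) and none higher. Without a minimum fold 3 were higher and 9 lower, where 24.5% of all genes were higher and 23.0% lower. The list's median log2 change was -0.09 and its highest 0.94. The copper transporter genes ctr4 and ctr5 encode subunits of the same complex. For ctr4 the values were 81.8, 88.9 and 99.02 CPM at 48 h and 551, 308 and 405 CPM at 24 h, a 4.69-fold fall (log2 -2.23, SE 0.39, adjusted p = 1.78e-05), and for ctr5 they were 57.6, 62.1 and 64.2 CPM at 48 h and 218, 151 and 175 CPM at 24 h (log2 -1.57, SE 0.24, adjusted p = 1.33e-06). The zinc transporter gene zrt1 had 227, 195 and 263 CPM at 48 h and 693, 474 and 607 CPM at 24 h (log2 -1.38, SE 0.13, adjusted p = 6.65e-11). Groups did not overlap in any of them, though the 24 h libraries of ctr4 were themselves spread. Outside the list, fet4, a predicted iron and zinc transporter gene, averaged 1.79 ± 0.127 CPM at 48 h and 7.23 ± 1.15 CPM at 24 h (log2 -2.01, SE 0.17, adjusted p = 1.56e-11).

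Genes of the M-factor, the pheromone that h- cells secrete, came down late. All 8 genes of the h- pheromone list were lower without a minimum fold (23.0% of all genes were). Called lower were 2 of them (2.81% of all genes were). The precursor gene mfm1 had 438, 642 and 365 CPM at 48 h, against 1343, 1872 and 1255 CPM at 24 h (log2 -1.63, SE 0.15, adjusted p = 5.92e-11). For mfm2 the values were 104, 124 and 122 CPM at 48 h and 348, 379.6 and 296 CPM at 24 h (log2 -1.55, SE 0.15, adjusted p = 1.55e-10). Groups were apart in both, and mfm1 still had 1182, 1369 and 1101 CPM at 36 h, so most of its fall came in the last 12 h. The M-factor genes encode nearly the same peptide, which makes the split of reads among them uncertain, while the list as a whole summed to between 2233 and 3114 CPM at 24 h, 1905 and 2465 CPM at 36 h, and 963 and 1388 CPM at 48 h. None of the 3 h+ genes was called. In the list of 28 genes for sexual differentiation and meiosis none was called either. Without a minimum fold 5 of them were higher and 7 lower, where 24.5% of all genes were higher and 23.0% lower. The gene ste11, for the transcription factor that starts mating, was at 0.14 and mei2, the regulator of meiosis, at -0.13.

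Genes of carbon use went both ways. Of 19 genes for hexose transport and glucose-repressed functions 3 were called lower (2.81% of all genes were) and none higher. No hexose transporter was among the 3, which were dak2 for dihydroxyacetone kinase, tms1 for a hexitol dehydrogenase and gut2 for a glycerol-3-phosphate dehydrogenase. For dak2 the values were 220.2, 198 and 250.4 CPM at 48 h and 806, 532 and 699.5 CPM at 24 h (log2 -1.61, SE 0.16, adjusted p = 3.49e-10). For tms1, which is also in the stress list, they were 52.4, 47.5 and 49.4 CPM at 48 h and 119, 113 and 119 CPM at 24 h (log2 -1.24, SE 0.09, adjusted p = 1.49e-13). The groups of each stood apart. The third, gut2, was at -1.15, and was just short of a 2-fold fall without replicate 1 of 24 h. Among 10 genes for pyruvate decarboxylase and alcohol dehydrogenase pdc201 rose and adh8 fell (log2 -1.05), and adh8 lost its call without replicate 2 of 24 h (-0.98) or replicate 1 of 48 h (-0.99). No glycolysis gene was called among 13, the glyceraldehyde-3-phosphate dehydrogenase gene gpd3 being at -0.29 and the enolase gene eno101 at -0.30. The gluconeogenic gene fbp1 was at 0.66 with groups apart. The gene of a protein with a cellulose-binding domain, cbm1, stood among the larger falls, with 157, 151 and 159 CPM at 48 h and 928, 1014 and 949 CPM at 24 h (log2 -2.63, SE 0.14, adjusted p = 2.66e-17).

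Further lists with no member called in edgeR's test between 48 h and 24 h included those for autophagy (33 genes), the proteasome (37), chaperones (35), the respiratory chain and ATP synthase (54), nuclear pores (30), TOR, AMPK and nutrient signalling (25), phospholipids (29), lipid stores (13), vacuolar and secreted proteases (6) and lifespan, quiescence and stationary phase (28). Without a minimum fold, by which 24.5% of all genes were higher and 23.0% lower, the proteasome list had 21 higher and 2 lower, chaperones 17 and 5, lifespan genes 11 and 8, autophagy 10 and 7, respiration 7 and 17, nuclear pores 5 and 10, and phospholipid genes 7 and 10, several of these near the shares of all genes. Nutrient signalling had 5 higher and 3 lower, lipid stores 1 and 5, and proteases 1 and 2. Single members were short of 2-fold: the autophagy kinase gene atg1 was at -0.06, the carboxypeptidase gene cpy1 at 0.52, the cytochrome c gene cyc1 at -0.76, the sterol acyltransferase gene are2 at -0.74 and the lifespan gene ecl3 at 0.09. The glyoxylase III gene hsp3105, of the chaperone list, had the largest rise in these lists without a call (114, 114 and 107 CPM at 48 h and 59.3, 63.3 and 59.1 CPM at 24 h, log2 0.89). The gene cox1102, of a tandem protein of Rsm22 and Cox11, under 6 CPM, was at -0.98 and passed 2-fold without replicate 2 of 24 h (-1.01), replicate 3 of 24 h (-1.02) or replicate 3 of 48 h (-1.18).

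**Figure D3:**
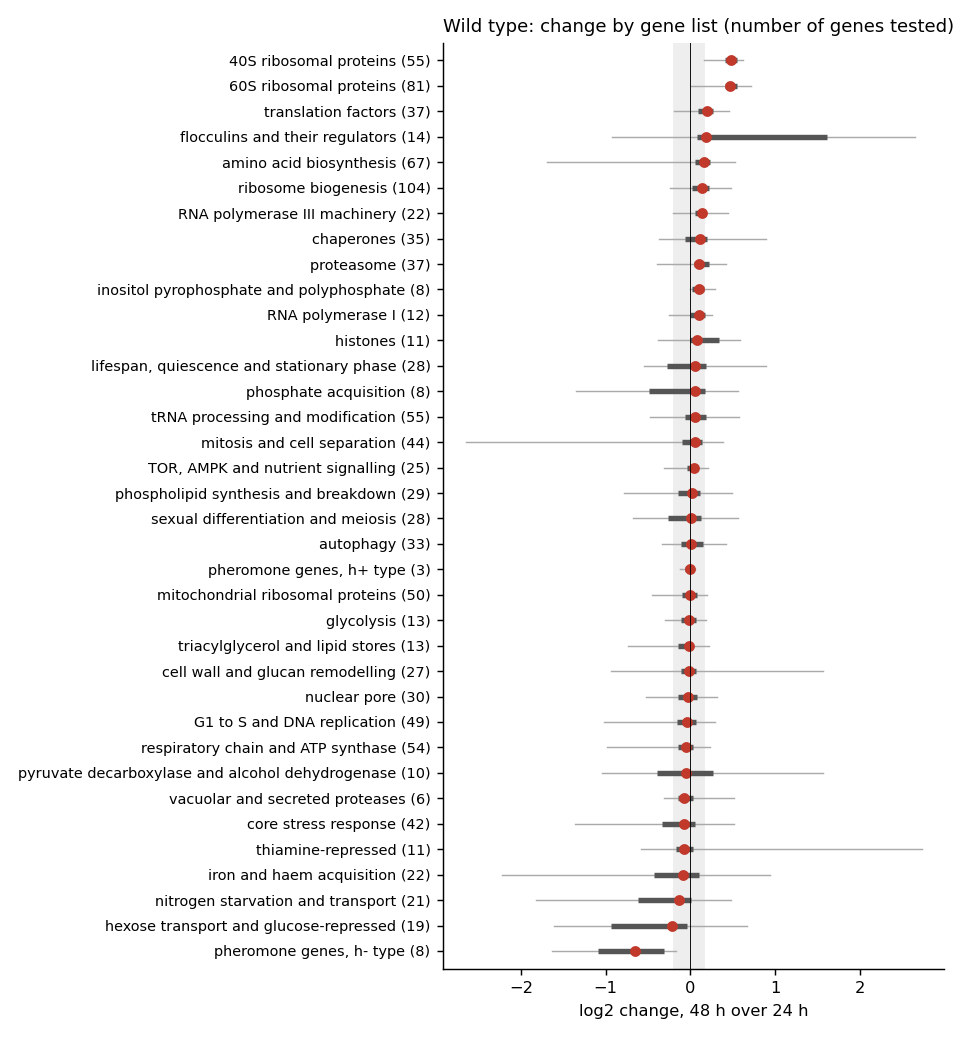
Log2 change from 24 h to 48 h in the wild type for the 36 gene lists: the dot is the list's median, the thick bar its middle 50% and the thin line its lowest to highest member, with the number of genes tested in brackets; the grey band is the middle 50% of all genes. Both ribosomal protein lists have their middle 50% above the band, with medians near 0.48, the flocculin list has the highest upper quartile at 1.61, and the h- pheromone list has the lowest median.

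The 36 h libraries held another kind of behaviour: genes that were higher there than at 24 h and at 48 h. In 13 genes (0.199%) the rise from 24 h to 36 h and the fall from 36 h to 48 h were both called, and in edgeR's test no gene did the reverse (0.0%); with 1.5-fold in place of 2-fold the counts were 51 (0.782%) and 6 (0.092%). In all 13 each 36 h library lay above the 6 others. The 13 were picked by calls made from these same libraries, so this separation largely follows from the choice and is no separate evidence of a peak. The same holds for the single genes of the set below. The count was 9 when libraries were scaled by their totals alone. It was 7 without replicate 3 of 24 h, a library that was the lowest of its time in most of these genes. The gene ddr48, a relative of a budding yeast gene that DNA damage induces, had 830.5, 820.2 and 499 CPM at 24 h, 3846, 3774 and 3499 CPM at 36 h and 1572, 1371 and 950.0 CPM at 48 h. For the small heat shock protein gene hsp16 the values were 1299, 1402 and 1131 CPM at 24 h, 3104, 3397 and 2698 CPM at 36 h and 1466, 1537 and 989 CPM at 48 h. The 36 h libraries of both stood clear of the rest, with log2 changes for 36 h against 24 h of 2.37 and 1.26 and for 48 h against 36 h of -1.51 and -1.20.

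The gene lsd90 followed the same course at 1488, 1265 and 877 CPM at 24 h, 3535, 3409.8 and 3574 CPM at 36 h and 1272, 942 and 590.4 CPM at 48 h. The glyoxylase gene hsp3101 had 374, 396 and 279 CPM at 24 h, 743, 773 and 751 CPM at 36 h and 362, 346 and 213 CPM at 48 h. In both, replicate 3 was the lowest library at 24 h and at 48 h. Also among the 13 were ssd2 for succinate-semialdehyde dehydrogenase, rtc3 of the SBDS family, the dehydrogenase-family gene SPACUNK4.17, the phosphoketolase-family gene SPBC24C6.09c, SPBC725.03 for a predicted pyridoxamine phosphate oxidase, the Schizosaccharomyces genes smp4 and SPCC1393.12, SPCC16A11.15c of unknown function and the noncoding SPBC16E9.20-antisense-1; their log2 changes for 36 h against 24 h ran between 1.03 and 1.80. SPACUNK4.17 ended lowest against 24 h (log2 -0.76, called at -1.02 without replicate 1 of 48 h), and ddr48 ended highest (0.86, called at 1.04 without replicate 3 of 48 h).

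Of the 13 genes, hsp16 is in the stress list of 42 and, with hsp3101, in the chaperone list of 35. At 1.5-fold the set of 51 held 7 of the 42 stress genes and 6 of the 35 chaperone genes, against 0.782% of all genes. Summed over the stress list the mean level was 28902 CPM at 24 h, 39779 CPM at 36 h and 27342 CPM at 48 h, and over the chaperone list 23732, 33344 and 25075 CPM. Between 48 h and 24 h the stress list had 2 genes called lower (2.81% of all genes were) and none higher. Without a minimum fold, by which 23.0% of all genes were lower and 24.5% higher, the list had 18 lower and 3 higher. Its 2 called genes were tms1 and rds1, a ferritin-related gene with 179.7, 155 and 125 CPM at 48 h and 444, 398 and 334 CPM at 24 h (log2 -1.36, SE 0.14, adjusted p = 6.86e-10), which had been at 538, 643 and 621 CPM at 36 h. The catalase gene ctt1 had 827, 789 and 642 CPM at 24 h, 1248, 1252 and 1311 CPM at 36 h and 723, 630.2 and 476 CPM at 48 h (log2 -0.30 for 48 h against 24 h), and hsp9, a small membrane heat shock protein gene, had 2293, 2299 and 1678 CPM, 4123, 3936 and 3631 CPM and 2061, 1772 and 1097 CPM at the same times. In both genes the 36 h libraries were the highest. The gene hsf1, for the factor that drives heat shock genes, was about as high at 48 h as at 36 h, at 631 CPM at 24 h, 834 CPM at 36 h and 822 CPM at 48 h on average.

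**Figure D4:**
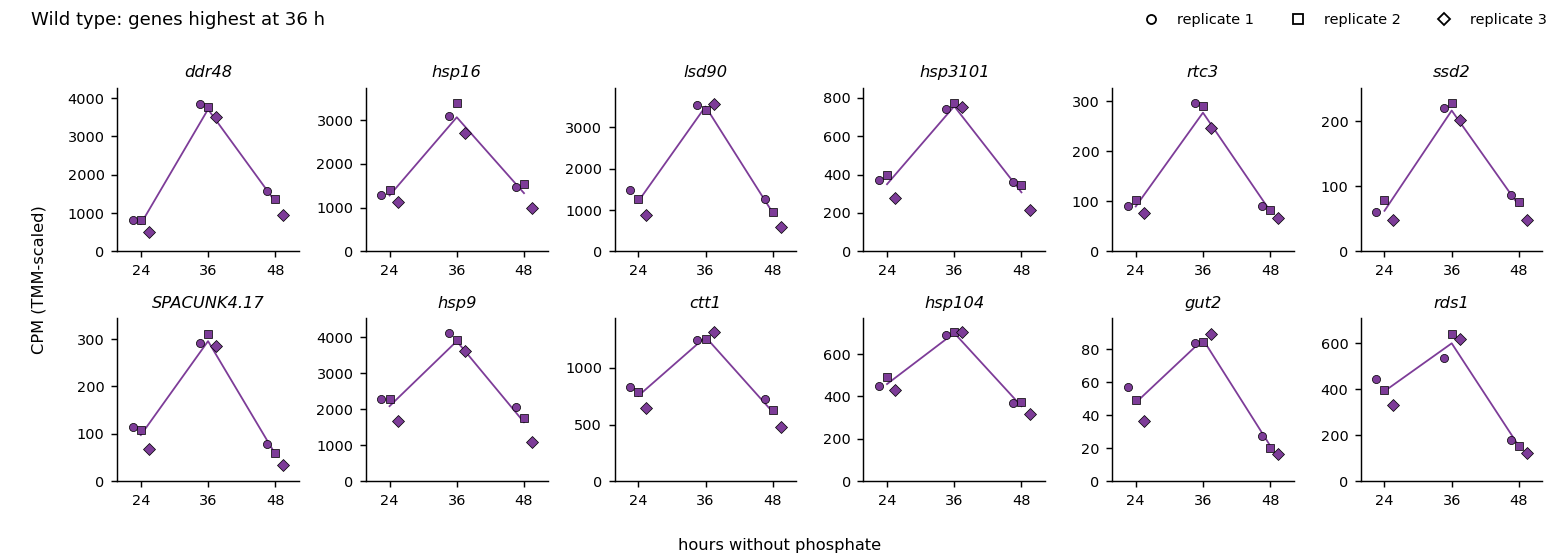
Level in CPM in each wild-type library at 24, 36 and 48 h for 12 genes, chosen after their values were seen; symbols mark the 3 replicates and lines join the means. In each panel the 36 h libraries are the highest, and gut2 and rds1 end below their 24 h level.

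By 36 h the rises had covered more of their change than the falls. The 38 genes called higher had covered a median of 75.6% of their log2 change by 36 h, and 32 of them more than 50%, while the 183 called lower had covered a median of 47.7%, and 88 of them more than 50%. The steps share the 36 h libraries with each other and the 24 h and 48 h libraries with the whole interval, so these figures describe the course and are no separate evidence of it. Scaling by library totals alone moved the median of all genes by -0.0996 for 36 h against 24 h and -0.048 for 48 h against 24 h. The percentages covered by 36 h were not computed under that scaling. Among falls before 36 h were nrg1 (-1.61 of -2.14 on the log2 scale), fet4 and urg2, and among falls after 36 h were mfm1 (-0.29 of -1.63), adh8 and say1, a sterol deacetylase gene. The predicted esterase gene SPAPB1A11.02 had 14.1, 10.4 and 11.1 CPM at 24 h, 16.6, 20.9 and 15.6 CPM at 36 h and 3.74, 2.94 and 1.20 CPM at 48 h, and the predicted hydroxyacyl-CoA dehydrogenase gene SPAC4H3.08 had 364, 441 and 291 CPM, 449, 499.9 and 484 CPM and 179, 179.9 and 108 CPM at those times, so their falls too came after 36 h (log2 -2.16 and -1.23 for 48 h against 24 h). The gene his3 had 2 of its 36 h libraries within the 24 h range and replicate 3 near the 48 h range (9.30, 12.4 and 2.47 CPM). Of the 221 genes 4 were called in the same direction in both steps: the noncoding cid14-antisense-1 and SPBP4G3.03-antisense-1, cbm1, at 329, 275 and 381 CPM at 36 h, and ctr4, at 227, 149 and 211 CPM. For the step from 24 h to 36 h 42.6% of the calls were higher, or 30.9% when libraries were scaled by their totals alone.

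Noncoding RNAs were called lower more often than protein-coding genes, and the shares differed with level. Of 1263 noncoding RNA genes 109 were lower (8.63%) and 20 higher, against 61 (1.21%) and 16 of 5048 protein-coding genes, and the median log2 change was -0.18 against 0.02. For the shares by level, a gene's level was its mean over all 42 libraries, not its wild-type level at 24 h or 48 h. Under 1 CPM the share called lower was 8.25% of noncoding RNA genes and 2.94% of protein-coding genes. Between 1 and 3 CPM it was 15.2% of noncoding RNA genes and 17.5% of protein-coding genes. From 3 to 10 CPM it was 8.84% of noncoding RNA genes and 7.69% of protein-coding genes. Between 10 and 100 CPM it was 4.82% of noncoding RNA genes and 0.767% of protein-coding genes, and over 100 CPM 13.3% of noncoding RNA genes (2 of 15) and 0.909% of protein-coding genes. The share thus did not fall steadily with this mean level. As a share of all counts noncoding RNA took 1.79%, 1.76% and 1.84% at 48 h, against 1.95%, 1.87% and 1.87% at 24 h. Noncoding genes not named as antisense had 81 of 650 lower (12.5%), and those named antisense 28 of 613 (4.57%). In the snoRNA, rRNA and snRNA classes, where none was called higher, 6 of 43 snoRNA genes, 4 of 36 rRNA genes and the snRNA gene snu5 were lower. Of all genes 2.81% were called lower. Of 94 tRNA genes 1 was called higher, at a mean of 0.110 CPM at 48 h, and none lower. The median log2 change was -0.06 over the snoRNA genes and 0.07 over the rRNA genes, and snoRNA genes took 0.0957% of all counts at 48 h and 0.0915% at 24 h on average. Poly(A) selection leaves few such RNAs in a library, so their level here need not follow their level in the cell; the rRNA gene SPRRNA.49 had 11.4, 15.3 and 10.6 CPM at 48 h and 31.8, 26.1 and 65.3 CPM at 24 h (log2 -1.69), replicate 3 of 24 h being the highest.

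Among single noncoding RNAs SPNCRNA.833 rose steadily, with 97.6, 82.5 and 86.9 CPM at 24 h, 206, 173 and 174 CPM at 36 h and 381, 333 and 372 CPM at 48 h (log2 2.02, SE 0.08, adjusted p = 1.51e-20). The antisense RNA toe1-antisense-1 had 216, 183 and 191 CPM at 48 h and 58.3, 56.5 and 53.4 CPM at 24 h (log2 1.81, SE 0.08, adjusted p = 8.26e-20), while toe1, the zinc-cluster transcription factor gene on the other strand, was at -0.27. SPNCRNA.1626 fell, with 62.3, 50.7 and 64.9 CPM at 48 h and 159, 179 and 193 CPM at 24 h (log2 -1.58, SE 0.16, adjusted p = 8.41e-10). Each of these had groups apart. SPNCRNA.1606 was more scattered, at 22.8, 10.6 and 37.2 CPM at 48 h and 114, 51.95 and 105 CPM at 24 h (log2 -1.98). Very rare was cid14-antisense-1, with 1.01, 2.07 and 1.20 CPM at 48 h, against 3 counts in all at 24 h, too few for a fold. The antisense RNA cao2-antisense-1 had 15.7, 12.5 and 14.5 CPM at 48 h and 5.33, 3.66 and 3.85 CPM at 24 h (log2 1.71, SE 0.34, adjusted p = 9.66e-05). Of 42 called antisense RNAs 41 had a tested partner, and 2 of the partners were called, both in the same direction as the antisense RNA. The library kit keeps strand, but the strand setting of the counting is not given in the sources used here, so reads of a gene and its antisense partner may not be fully separated.

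Several falls were neighbours on a chromosome. In the gene order of the RefSeq assembly ASM294v3, which was used for order only since the submitters' processing notes name ASM294v2, 7 consecutive tested genes were called lower: fub2, SPBP4G3.03-antisense-1, nrg1, say1, nam3, SPBPB2B2.05 and SPBPB2B2.06c. They lie next to pho84 and pho1. The stretch from pho84 to the end of the run has 11 tested genes, 7 of them lower and none higher in edgeR's test. Its end was set by the run, so these counts are no further result about the neighbourhood. Levels of the 7 genes in the run differed widely. SPBPB2B2.05, of the class I glutamine amidotransferase family, had 162, 159 and 192 CPM at 48 h and 495, 462 and 452 CPM at 24 h (log2 -1.46, SE 0.13, adjusted p = 1.98e-11). SPBP4G3.03-antisense-1 had 1.58, 1.04 and 1.20 CPM at 48 h and 15.3, 10.1 and 10.8 CPM at 24 h (log2 -3.28, SE 0.27, adjusted p = 4.35e-12), and its sense partner fub2, a proteasome regulator gene, had 6.26, 7.31 and 8.09 CPM at 48 h and 20.3, 17.5 and 24.6 CPM at 24 h (log2 -1.53). The noncoding nam3 was at -1.31 and say1 at -1.21. No overlap between the groups occurred in these 5. Of the other runs, 2 had 3 genes, fet4 with SPNCRNA.1339 and SPNCRNA.1340, and tms1 with adh8 and SPNCRNA.1336, and 10 had 2, among them SPAC1039.01 with SPAC1039.02. Altogether 20 neighbouring pairs were called lower together and 0 higher together. The run of 7 gave several of the 20. Of all genes 2.81% were called lower and 0.583% higher, so fewer pairs higher together could form. Neither count was tested against these shares. Overlapping transcripts and repeated genes near chromosome ends could share reads, which was not tested.

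Set against the first 12 h of starvation, a comparison with no library in common, more of the late falls had been called higher than lower; these shares were not tested. Of the 183 called lower between 48 h and 24 h, 66 were called higher (36.1%) and 38 lower (20.8%) at 12 h against 0 h, where 22.1% of all genes were called higher and 19.7% lower. Of the 38 called higher late, 12 had been higher and 15 lower. The step from 12 h to 24 h, which had 92 genes higher (1.41%) and 124 lower (1.9%), shares the 24 h libraries and is given by values alone. The gene nrg1 stood at 3.35 CPM at 0 h, 588 CPM at 12 h, 274 CPM at 24 h and 61.9 CPM at 48 h. For cbm1 the course was 90.5, 1935, 964 and 156 CPM and for isp4 52.7, 589.8, 242 and 90.6 CPM. These 3 genes were highest at 12 h of those times and kept falling. The psu2 course went up at each of them, at 1.07, 3.61, 39.8 and 118 CPM, whereas ctr4 rose to its highest at 24 h (116, 185, 421 and 89.9 CPM).

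In the maf1 deletion the same interval ran differently. The deletion had 520 genes called between 48 h and 24 h (7.97%), 371 higher (5.69%) and 149 lower (2.28%), so 71.3% of its calls were higher. Of the 38 genes that rose in the wild type 12 were called higher in the deletion and none lower, and of the 183 that fell 19 were called higher and 23 lower. The median log2 change of noncoding RNA genes was 0.18 in the deletion and -0.18 in the wild type. Of 94 tRNA genes 92 were called higher in the deletion and 1 in the wild type. Ribosomal protein genes gained in both strains: their share of counts was 12.0%, 12.1% and 11.8% in the deletion at 48 h and 7.64%, 7.60% and 7.64% in the deletion at 24 h, and 9 of the 136 were called higher there. The difference between the strains was tested as an interaction, deletion minus wild type, and was called for 532 genes (8.16%), 404 with a higher change in the deletion (6.2%) and 128 with a lower one (1.96%). Genotype, mating type and the deletion's greater depth change together between the strains and cannot be told apart.

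The flocculin genes gsf2 and pfl4 changed differently in the deletion. There gsf2 averaged 34.4 ± 2.48 CPM at 48 h and 44.3 ± 5.54 CPM at 24 h (SD, n = 3 each), and the interaction was -2.60 (SE 0.26, adjusted p = 1.88e-10); for pfl4 it was -2.47 (adjusted p = 5.65e-15). Among genes picked after their values were seen, some took opposite directions, called in each strain. The dihydroxyacetone kinase gene dak2 averaged 1454 ± 17.7 CPM at 48 h and 419 ± 59.9 CPM at 24 h in the deletion (SD, n = 3 each), a log2 change of 1.80 against -1.61 in the wild type. The zinc transporter gene zrt1 had changes of 1.60 in the deletion and -1.38 in the wild type, and aat1 of 1.36 in the deletion and -1.39 in the wild type. At 24 h the separation gene adg1 averaged 6.87 ± 0.727 CPM in deletion libraries, against 31.99 ± 7.33 CPM in wild-type ones (SD, n = 3 each). For other genes the difference between the strains was not called, among them cbm1, isp4, xan1 and fmd2, picked as examples. The change of cbm1 was -3.09 in the deletion and -2.63 in the wild type, that of isp4 -1.48 in the deletion and -1.42 in the wild type, that of xan1 -1.19 in the deletion and -1.23 in the wild type, and that of fmd2 1.04 in the deletion and 1.73 in the wild type. Among the PHO genes tgp1 fell in the deletion (-1.04, called) and pho84 was at -0.58, while nc-pho1 rose there (1.46, called).

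**Figure D5:**
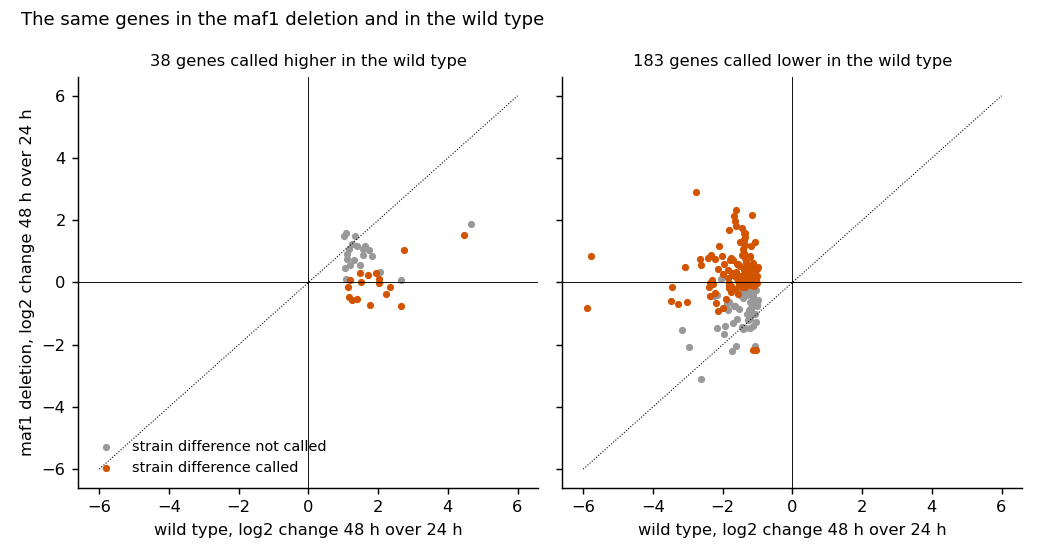
Log2 change from 24 h to 48 h in the maf1 deletion (vertical axis) against that in the wild type (horizontal axis) for the 38 genes called higher in the wild type (left) and the 183 called lower (right); orange marks genes whose change differed between the strains by the interaction test, and the diagonal marks equal change. Of the 183 genes, 19 were called higher in the deletion and 23 lower; since the genes were chosen by their wild-type change, the distance from the diagonal is partly set by that choice.

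The authors' deposited tables of log2 fold changes against 0 h were set beside these changes. Subtracting their 24 h value from their 48 h value for the 6517 genes with both, the median absolute distance from the edgeR change was 0.0171, and in the authors' deposited tables all 221 called genes had the same sign and 218 were past 2-fold. Those tables were made from the same libraries and are no independent check.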

How the data were processed

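RNA sequencing counts of 42 libraries, 3 for each of 14 samples, were analysed. Per the labels' protocols, RNA was extracted with hot acid phenol, poly(A)+ RNA was made into strand-keeping TruSeq libraries and these were sequenced as read pairs on a NovaSeq; the submitters' processing notes name the build ASM294v2 with HTSeq 0.10.0, HISAT2 2.1.0, SAMtools and DESeq2. The strand setting and the rule for reads that map to several places are not given in the sources used here. The authors deposited a table of estimated counts with 6988 identifiers, in which 19110 values (6.51%) were 0.5 and stood in place of 0; these were rounded to 0 here, no other value being fractional. The authors also deposited log2 fold changes against 0 h, used only for comparison.

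Genes were kept by filterByExpr, which left 6521 for the tests and 467 out. All 42 libraries were fitted together in edgeR 4.0.16 (R 4.3.3) with TMM scaling and the quasi-likelihood test, without a replicate term, at 28 residual degrees of freedom, and p-values were adjusted by Benjamini-Hochberg over all genes tested. Standard errors (SE) are of the log2 change and were derived as its absolute value divided by the square root of the test's F statistic. The median biological coefficient of variation was 0.04563. Replicate libraries differed by more than counting noise (chi-square per degree of freedom 5.58 to 14.1), so none was counted as a duplicate. Over genes whose mean over the 42 libraries was above 10 CPM, same-numbered libraries of 48 h and 24 h deviated together (correlations 0.28, 0.47 and 0.36). So did those of 36 h and 24 h (0.29, 0.20 and 0.39), but not those of 48 h and 36 h (0.19, 0.03 and -0.09). The pairing comes from these correlations, not from the labels. The fit was checked on simulated counts.

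The genes named were the 10 largest rises and 10 largest falls with a symbol, at least 1 CPM and separate groups, up to 4 called members of each of 36 lists or up to 2 members of a list with none, 12 fixed genes, and others marked in the text or chosen after their values were seen (the 36 h set, genes of the chromosome run, noncoding RNAs and comparators). A gene of the list of mitosis and cell separation was taken out of that list after the analysis, for a reason other than its values, and is not reported here; the list's counts and median are without it. The genes and lists were chosen with earlier results of these data known. Alternatives were other scaling, DESeq2 1.42.0, filters, thresholds, subsets of libraries, a replicate block and leaving out each library.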

Additional observations from a re-analysis of the deposited data

Results flagged for a closer look

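Of the 141 named genes, 53 had a log2 change between 48 h and 24 h that differed between the maf1 deletion and the wild type past the adjusted p and 2-fold thresholds of the interaction test in edgeR. Values below are the change in the deletion minus that in the wild type, over 3 libraries per strain and time, and 38 were positive and 15 negative. Of all genes 8.16% were called by that test, 6.2% positive and 1.96% negative. Many of the 141 genes were chosen by their wild-type change, which the difference subtracts, so these counts are partly set by that choice. Genotype, mating type and depth change together between the strains and cannot be told apart.

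Among surface, wall and thiamine genes the difference was -3.42 for pfl6, -2.60 for gsf2, -2.49 for pfl9, -2.47 for pfl4, -1.11 for pfl8, -1.92 for agn2 and -1.68 for nmt1. Among noncoding RNAs with a lower change in the deletion it was -2.96 for cid14-antisense-1, -2.03 for SPNCRNA.833 and -1.46 for cao2-antisense-1; the first is a fitted value that rests on 3 counts in the wild type at 24 h and gives no reliable size. It was -1.65 for SPCC737.04, -1.50 for ssd2, -1.13 for cpy1, -1.12 for tgp1 and -1.04 for itr2.

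For genes of cell separation the difference was 3.41 for adg1 and 1.11 for adg2. For transporters it was 2.98 for zrt1, 2.87 for fet4, 2.76 for aat1, 2.57 for nrg1, 2.33 for dip5, 1.91 for ctr4, 1.66 for put4, 1.61 for ctr5, 1.43 for SPAC1039.01 and 1.39 for SPBC359.01. For carbon, nucleotide, histidine and sterol genes it was 3.41 for dak2, 1.37 for gut2, 2.40 for his3, 1.55 for SPBC800.11, 1.54 for SPAC1039.02, 2.05 for say1 and 1.68 for SPBPB2B2.05.

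For genes of the stress, lifespan and pheromone lists and of the 36 h set it was 1.63 for ecl1, 1.52 for rds1, 1.39 for pyp2, 1.37 for lsd90, 1.18 for smp4, 1.17 for SPACUNK4.17, 1.03 for SPBC725.03 and 1.69 for mfm2. For cox1102, of the respiratory chain list, it was 1.14. For noncoding RNAs and a neighbouring transcription factor gene with a higher change in the deletion it was 2.60 for SPBP4G3.03-antisense-1, 2.26 for SPBC1773.12, 2.23 for SPBC1773.12-antisense-1, 2.22 for SPBC800.12c-antisense-1, 2.10 for nc-pho1, 1.63 for meu3, 1.37 for nam3, 1.21 for meu16, 1.16 for SPNCRNA.1606 and 1.09 for sme2.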

How the results depend on the processing

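For 48 h against 24 h, 221 genes were called; the count was 121 with 10 CPM required in 3 libraries (29 higher, 92 lower), 82 when protein-coding genes alone were tested (16 and 66), 3097 without a minimum fold, 565 at 1.5-fold and 41 at 4-fold. Leaving out 1 library gave 194 to 243. DESeq2 called 227, of which 218 were among the 221. For 36 h against 24 h the 101 calls became 59 for protein-coding genes, 2263 without a minimum fold, 315 at 1.5-fold and 11 at 4-fold, and 82 to 120 on leaving out 1 library. For 48 h against 36 h the 77 became 46, 2366, 252 and 8 under those settings, and 59 to 113. A 1.5-fold minimum gave 600 calls for 24 h against 12 h, 1216 for the deletion and 1177 for the difference between strains, and leaving out 1 library gave 203 to 210, 494 to 570 and 483 to 580; for 12 h against 0 h it gave 2702 to 2752. Scaling by library totals alone moved the median of all genes by -0.233 for 12 h against 0 h, where 40.5% of calls were then higher against 52.8%. Noncoding RNA genes called lower numbered 36 with 10 CPM required and 86 to 116 on leaving out 1 library. Ribosomal protein genes higher without a minimum fold numbered 133 to 135 in every setting run. The 36 h set held 7 to 15 genes on leaving out 1 library and 9 with library totals alone. Stricter filters test fewer genes; the cause of the other shifts was not tested.

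With the replicate number as a block in the 9 wild-type libraries the counts were 203 (48 h against 24 h), 97 (36 h against 24 h) and 81 (48 h against 36 h), and no call of a named gene changed.

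Of 2092 values of single named genes under the alternatives, 2064 kept direction and call, 7 lost the call, 9 gained it and 12 changed sign. All sign changes were of values near 0. Over the 6 libraries left out in turn SPCC1393.12 ran from -0.19 to 0.04, SPCC16A11.15c from -0.07 to 0.14, hsp16 from -0.06 to 0.23, hsp3101 from -0.32 to 0.02 and ssa1 from -0.14 to 0.03. The values of the other sign were SPCC1393.12 at 0.02 without replicate 2 of 24 h and 0.04 without replicate 3 of 48 h; SPCC16A11.15c at -0.03 with library totals alone, -0.07 without replicate 3 of 24 h, and -0.06 and -0.03 without replicates 1 and 2 of 48 h; hsp16 at -0.02 without replicate 3 of 24 h or replicate 1 of 48 h and -0.06 without replicate 2 of 48 h; hsp3101 at 0.02 and ssa1 at 0.03 without replicate 3 of 48 h; and pho1 at -0.03 with library totals alone. The counts below 1 CPM limit the rarest calls, 3 of the 38 higher and 31 of the 183 lower.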
